A study of Homo sapiens with 96 samples.

Results

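The DEAD and DEAH box RNA helicases were taken from the splicing tables as all genes whose symbol is DDX or DHX followed by digits and an optional letter, without DDX39A, DDX39B and antisense genes. They contributed 1393 alternative splicing events in 51 genes, out of 239131 events in 14359 genes. Of these, 47 were retained introns (RI, of 4928 in all), 912 were skipped exons (SE), 320 were mutually exclusive exons (MXE), 74 were alternative 3′ splice sites (A3SS) and 40 were alternative 5′ splice sites (A5SS). The libraries were poly(A)+ RNA from A549 cells, a human lung adenocarcinoma line. DMSO (0.01%) was the control at 4 and 7 days. GSK591, an inhibitor of PRMT5, was given at 1 µM for 2, 4 or 7 days. MS023, an inhibitor of the Type I PRMTs, was given at 1 µM for 2, 4 or 7 days, and both inhibitors were given together at 1 µM each for 2 or 4 days. Each of the 10 groups had 3 libraries of the same line, and no source used here says whether they came from separate cultures, so p-values measure only the spread between these libraries, which may be technical. The groups treated for 2 days had no DMSO group of their own day and were compared with DMSO at 4 days, so that 6 comparisons of inhibitor with DMSO share the same 3 control libraries. A difference between these groups and DMSO cannot be told apart from one between days. The 7-day tables were read as compared with the 7-day DMSO group.

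RNA helicases of the DEAD and DEAH families use ATP to separate short RNA duplexes or to strip proteins from RNA. Some drive the rearrangements of the spliceosome, others fold and trim precursor rRNA, and others act in mRNA export, translation and decay. PRMT5 makes symmetric dimethylarginine and Type I PRMTs make asymmetric dimethylarginine, and both kinds of mark are found on RNA-binding proteins. A retained intron is one that stays in an otherwise spliced, polyadenylated transcript. Inclusion was measured as Ψ, the share of an event's inclusion and skipping reads, corrected for effective length, that contain the intron or exon, and ΔΨ is Ψ with inhibitor minus Ψ with DMSO. Ψ from bulk RNA does not tell fewer cells with an altered transcript from fewer altered transcripts per cell. The tables hold no expression levels, so the markers of the cell line were not checked here.

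Reads on RI events ranged from 3118222 to 5224249 per library, and reads on the helicase events from 250867 to 582747, of which 19732 to 38697 fell on their RI. On the helicase events the 7-day libraries had 250867 to 318939 reads, and those of 2 and 4 days had 409829 to 582747. Whether this lower depth affected the calls at 7 days was not tested. Between libraries of one group, counts on RI varied 1.88 to 4.72 times as much as binomial sampling alone would give (chi-square per degree of freedom). The test was a quasi-binomial test with limma-moderated dispersion on the inclusion and skipping counts, adjusted by Benjamini-Hochberg over all events of a type, and an event was called when its adjusted p was under 0.05. Values marked "limma on log2 odds" come from a second test that gives each library equal weight and asks more of 3 against 3 libraries. Over the 8 comparisons of inhibitor with DMSO, 46 helicase RI passed the minimum of 10 reads in every library at least once and 30 were called at least once, in 17 of the 21 genes tested. Of the 1264 exon and splice-site events tested, 127 were called, in 34 genes. Altogether 38 helicase genes had a called event and 13 had none, namely DDX10, DDX18, DDX19B, DDX20, DDX21, DDX25, DDX26B, DDX49, DDX60, DHX16, DHX32, DHX35 and DHX58. DDX26B, which later nomenclature no longer counts as a helicase, has 6 events and none passed the minimum. The 12 events of DDX3Y are counted in the totals without individual values.

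GSK591 raised retention in most of the helicase introns it changed on every day, and MS023 lowered it in a few introns. With GSK591 for 2 days, 15 of 44 helicase RI were called, 14 of them higher, while over all genes 26.4% of RI were called and 24.0% were higher. At 4 days 20 of 42 were called and 19 were higher, against 38.2% called and 33.9% higher in the background. At 7 days 13 of 40 were called, 10 higher and 3 lower, against 27.9% called and 21.8% higher. The helicase shares were thus 34.1%, 47.6% and 32.5%, somewhat above all genes on each day, and this difference was not tested. Median ΔΨ over the tested helicase RI was 0.00954, 0.0181 and 0.00479 at 2, 4 and 7 days, beside 0.015, 0.0196 and 0.00762 over all RI. Limma on log2 odds called 6, 15 and 9 helicase RI on these days.

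MS023 called 2 of 43 helicase RI at 2 days, 3 of 41 at 4 days and 3 of 40 at 7 days, where the background was 5.65%, 7.17% and 11.4%. Of these, 2, 2 and 3 were lower, against 4.21%, 5.60% and 9.49% lower over all genes. Limma on log2 odds called 0 helicase RI on each day of MS023, with 4, 6 and 6 at an unadjusted p under 0.05. Co-treatment called 21 of 43 helicase RI at 2 days and 21 of 43 at 4 days, with 34.7% and 39.7% called in the background. Of these calls, 14 and 16 were higher, against 29.7% and 33.6% higher over all genes. The remaining 7 and 5 of 43 were lower, beside 196 of 3897 and 241 of 3949 RI over all genes. The share that was lower was thus above that of all genes on both days, and this difference was not tested. In the number of calls the helicases followed the order of the whole transcriptome, with many under GSK591 or co-treatment and few under MS023.

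**Figure D1:**
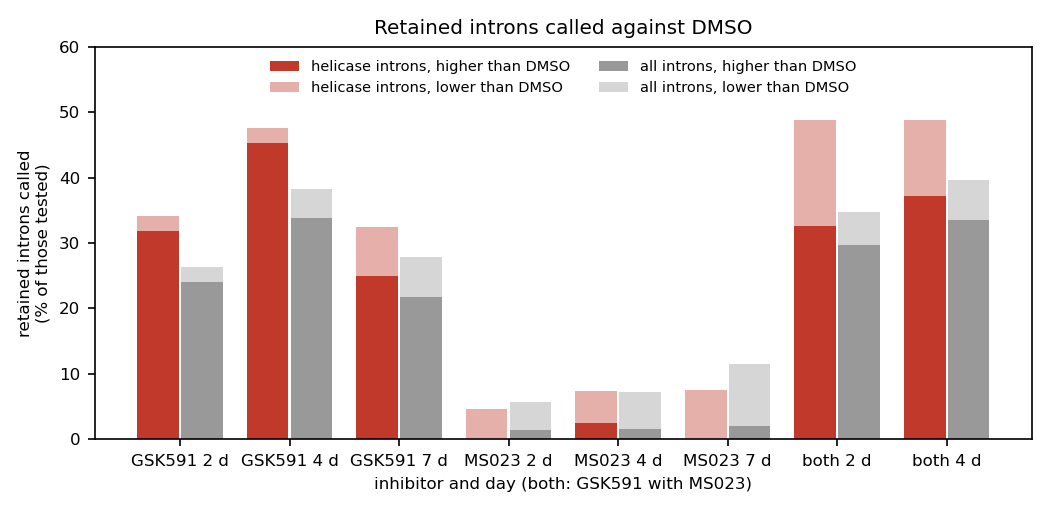
Percent of tested retained introns that were called higher or lower, for the helicases and for all genes, in the 8 comparisons of inhibitor with DMSO. Helicase shares run from 4.65% with MS023 at 2 days to 48.8% with co-treatment, and follow those of all genes.

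**Figure D2:**
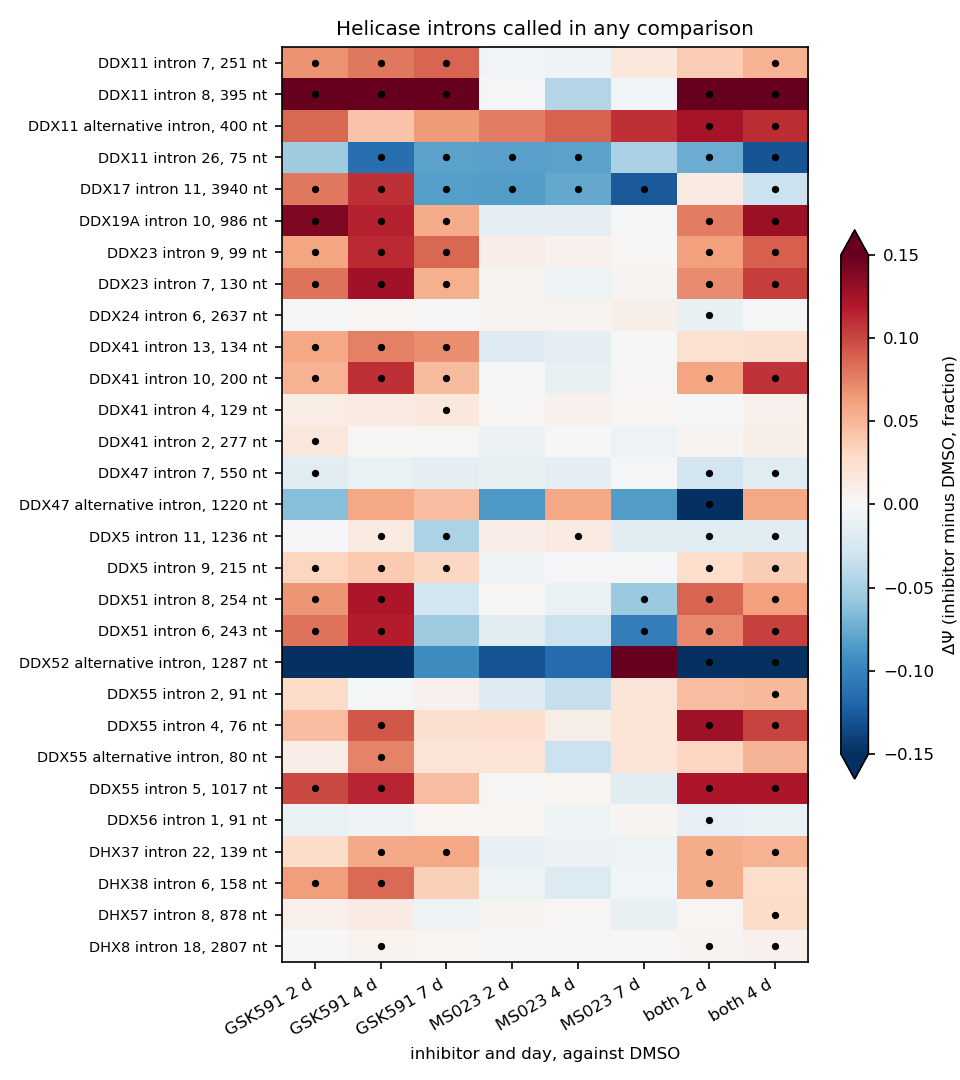
Map of ΔΨ (inhibitor minus DMSO) for 29 helicase introns called in at least 1 comparison, with one row per intron and one column per comparison; colour stops at ±0.15. Most rows are raised in the GSK591 and co-treatment columns and near 0 in the MS023 columns, while the DDX17 row changes sign between days of GSK591.

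Among the spliceosomal helicases, DDX23 and DDX41 carried the increases that lasted on every day. The list of 9 spliceosomal genes had 12 tested RI, of which 6, 6 and 5 were higher with GSK591 at 2, 4 and 7 days and 0 lower, beside 24.0%, 33.9% and 21.8% higher over all RI. MS023 called 0 of the 12 on each day, beside 5.65%, 7.17% and 11.4% over all RI. Co-treatment raised 5 at 2 days and 4 at 4 days, beside 29.7% and 33.6%. With 12 introns in the list, none of these shares was tested against all genes. DDX23 is the U5 snRNP helicase that releases U1 snRNA from the 5′ splice site. DDX41 is found in the catalytic spliceosome and is a tumour suppressor of myeloid cells. The short introns that these results turn on are shown whole, in DDX23 and DDX41 and in DHX37 and DDX5, described further on. Coordinates are hg19, sequences were read from GRCh37 on the transcript's strand, and capitals mark the first and last 2 bases of the intron.
DDX23 intron 9 (chr12:49230578-49230676, minus strand): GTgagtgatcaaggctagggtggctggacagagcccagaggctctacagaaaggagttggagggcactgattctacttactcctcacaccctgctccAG
DDX41 intron 10 (chr5:176940486-176940685, minus strand): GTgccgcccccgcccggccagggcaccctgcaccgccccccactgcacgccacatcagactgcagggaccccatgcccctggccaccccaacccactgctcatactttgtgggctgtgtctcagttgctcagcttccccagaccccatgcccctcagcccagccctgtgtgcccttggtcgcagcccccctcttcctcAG
DHX37 intron 22 (chr12:125435097-125435235, minus strand): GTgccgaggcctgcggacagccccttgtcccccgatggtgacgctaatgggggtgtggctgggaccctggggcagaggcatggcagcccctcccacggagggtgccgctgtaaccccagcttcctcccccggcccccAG
DDX5 intron 9 (chr17:62498342-62498556, minus strand): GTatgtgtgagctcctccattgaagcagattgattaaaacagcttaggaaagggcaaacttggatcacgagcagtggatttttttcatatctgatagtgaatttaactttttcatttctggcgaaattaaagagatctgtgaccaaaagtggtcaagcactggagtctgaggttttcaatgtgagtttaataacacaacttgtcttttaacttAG

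DDX23 intron 9, 99 nt between coding exons, had Ψ of 0.0141, 0.012 and 0.0174 in the DMSO libraries at 4 days. GSK591 gave 0.0704, 0.0597 and 0.091 at 2 days, and 0.11, 0.138 and 0.131 at 4 days. The groups did not overlap on either day, and ΔΨ was 0.0592 (SE 0.00932) and 0.112 (SE 0.00855), with quasi-binomial adjusted p of 1.19e-05 and 4.26e-10. At 7 days DMSO libraries were at 0.0276, 0.0313 and 0.0175 and GSK591 libraries at 0.132, 0.108 and 0.0952, a ΔΨ of 0.0866. Under MS023 ΔΨ was 0.00953, 0.00684 and 0.00122 at 2, 4 and 7 days, none of which passed the test. Co-treatment gave 0.0779, 0.0664 and 0.0822 at 2 days and 0.106, 0.0987 and 0.107 at 4 days, again above every DMSO library.

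DDX23 intron 7 (chr12:49231177-49231306, 130 nt) rose with intron 9 of the same gene. Its Ψ was 0.0436, 0.0484 and 0.0285 with DMSO at 4 days and 0.165, 0.168 and 0.166 with GSK591, for ΔΨ of 0.126 (SE 0.00607, adjusted p = 1.44e-10). At 2 and 7 days ΔΨ was 0.082 and 0.0532, with adjusted p of 1.22e-06 and 1.02e-09. Both introns also passed limma on log2 odds at 4 days (adjusted p of 0.00165 for intron 9 and 0.00367 for intron 7).

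In DDX41, 5 introns were tested and 4 were called in at least 1 comparison. Intron 10, 200 nt, went from 0.0486, 0.0426 and 0.0454 with DMSO at 4 days to 0.158, 0.154 and 0.155 with GSK591. All treated libraries lay above all control libraries, with ΔΨ of 0.11 (SE 0.0021, adjusted p = 2.35e-07). At 2 days the GSK591 libraries were at 0.111, 0.104 and 0.0803, and at 7 days at 0.0865, 0.104 and 0.0903 against 0.0376, 0.06 and 0.0419 with DMSO. ΔΨ was 0.0527 and 0.0471 on those days, and both were called. With co-treatment at 4 days the libraries were at 0.139, 0.161 and 0.161, above every DMSO library. MS023 libraries, at 0.0329, 0.0326 and 0.0385 at 4 days, lay below those of DMSO without passing the test (adjusted p = 0.462). Intron 13 of DDX41 (134 nt), chosen after its values were seen, was also called on each day of GSK591, with ΔΨ of 0.058, 0.076 and 0.0701. Introns 2 and 4 were called on a single day each, with ΔΨ of 0.017 at 2 days and 0.0158 at 7 days.

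The other spliceosomal helicases moved less, and the following were also chosen after their values were seen. DHX38, which acts before the second step of splicing, had Ψ of 0.0521, 0.0605 and 0.0299 in intron 6 (158 nt) with DMSO at 4 days, and 0.148, 0.147 and 0.102 with GSK591. Its ΔΨ of 0.0848 was called (adjusted p = 3.23e-04), and at 7 days the ΔΨ of 0.0353 was not (adjusted p = 0.0514). DHX8, which releases the spliced mRNA, had an intron 18 of 2807 nt in which Ψ was 0.0127 or less in every library compared with DMSO, with ΔΨ of 0.00544 at 4 days of GSK591 (adjusted p = 0.00686). None of the 3 RI of DDX46, which acts at the branch site with the U2 snRNP, was called in any comparison with DMSO.

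Helicases of ribosome biogenesis held the most tested RI of any list, and their increases at 4 days of GSK591 were in DDX51, DDX55 and DHX37. Of 18 tested RI on that day, 6 were higher (33.3%) and 0 lower, a share near the 33.9% of all RI. At 2 days 3 of 20 were higher and 1 lower, beside 24.0% higher over all RI, and at 7 days 1 of 16 was higher, beside 21.8%. Co-treatment moved them both ways, with 5 higher and 5 lower of 19 at 2 days and 6 higher and 2 lower of 19 at 4 days. Over all RI, 29.7% and 33.6% were higher on these days, and 196 of 3897 and 241 of 3949 were lower. The shares of this list were not tested against those of all genes. DDX51 acts in the maturation of the 3′ end of 28S rRNA. Intron 8 (chr12:132625566-132625819, 254 nt) was at 0.0537, 0.0517 and 0.0378 with DMSO at 4 days and at 0.143, 0.191 and 0.172 with GSK591, a ΔΨ of 0.121 (adjusted p = 5.36e-07). Intron 6 (chr12:132626152-132626394, 243 nt) went from 0.147, 0.112 and 0.108 to 0.278, 0.233 and 0.21, a ΔΨ of 0.118 (adjusted p = 1.65e-04). Neither was called at 7 days of GSK591, when intron 6 was at 0.16, 0.111 and 0.114 with GSK591 and at 0.228, 0.143 and 0.176 with DMSO. MS023 at 7 days gave 0.076, 0.0421 and 0.122 in intron 6, below every DMSO library (ΔΨ = −0.102, adjusted p = 0.00405), and limma on log2 odds did not call it (adjusted p = 0.202). In intron 8 the MS023 libraries at 7 days, at 0.00976, 0.0366 and 0.0285, overlapped the DMSO libraries at 0.123, 0.0341 and 0.0851 (ΔΨ = −0.0558, adjusted p = 0.00728, and 0.264 with limma on log2 odds).

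DDX55, which acts in assembly of the large ribosomal subunit, had 4 called RI, of which 3 overlap or adjoin each other. Intron 5 (chr12:124092210-124093226, 1017 nt) was at 0.102, 0.099 and 0.0842 with DMSO at 4 days and at 0.214, 0.214 and 0.2 with GSK591 (ΔΨ = 0.114, adjusted p = 2.05e-07). Co-treatment at 4 days gave 0.212, 0.223 and 0.212 (ΔΨ = 0.121, adjusted p = 2.35e-08). At 7 days DMSO itself was higher, at 0.174, 0.184 and 0.134, and overlapped GSK591 at 0.216, 0.244 and 0.173. DHX37, which frees the U3 snoRNA from the precursor of the small subunit, was added after its values were seen. Its 139-nt intron 22 went from 0.0614, 0.0711 and 0.0736 to 0.141, 0.0915 and 0.145 with GSK591 at 4 days (ΔΨ = 0.0572, adjusted p = 0.00304), and its ΔΨ of 0.0578 at 7 days was also called.

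The largest negative differences in this list came from segments with few reads that also overlap a canonical exon, exon 12 in DDX52 and exon 8 in DDX47. A fall in their Ψ cannot be told apart from more skipping of that exon, so it need not be less intron retention. Both are among the 5 lower RI of this list with co-treatment at 2 days. In DDX52, a factor for the small subunit, a 1287-nt segment (chr17:35979885-35981171) that is not an intron of the annotation was at 0.537, 1 and 1 with DMSO and at 0.561, 0.378 and 0.317 with co-treatment at 2 days. One DMSO library thus overlapped the treated ones, the smallest library had 73 reads, and the ΔΨ of −0.427 had an SE of 0.171 (adjusted p = 0.0163). In DDX47, also a factor for the small subunit, a 1220-nt segment spanning exon 8 (chr12:12976254-12977473) went from 1, 0.938 and 0.886 to 0.827, 0.685 and 0.381 with co-treatment at 2 days, with 45 reads in its smallest library (ΔΨ = −0.31, adjusted p = 0.0206). The DDX52 call was lost without DMSO library 2 or 3 (ΔΨ = −0.349 each) and without co-treated library 2 or 3 (−0.406 and −0.376). The DDX47 call was lost without DMSO library 1 (−0.281) or co-treated library 3 (−0.185).

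**Figure D3:**
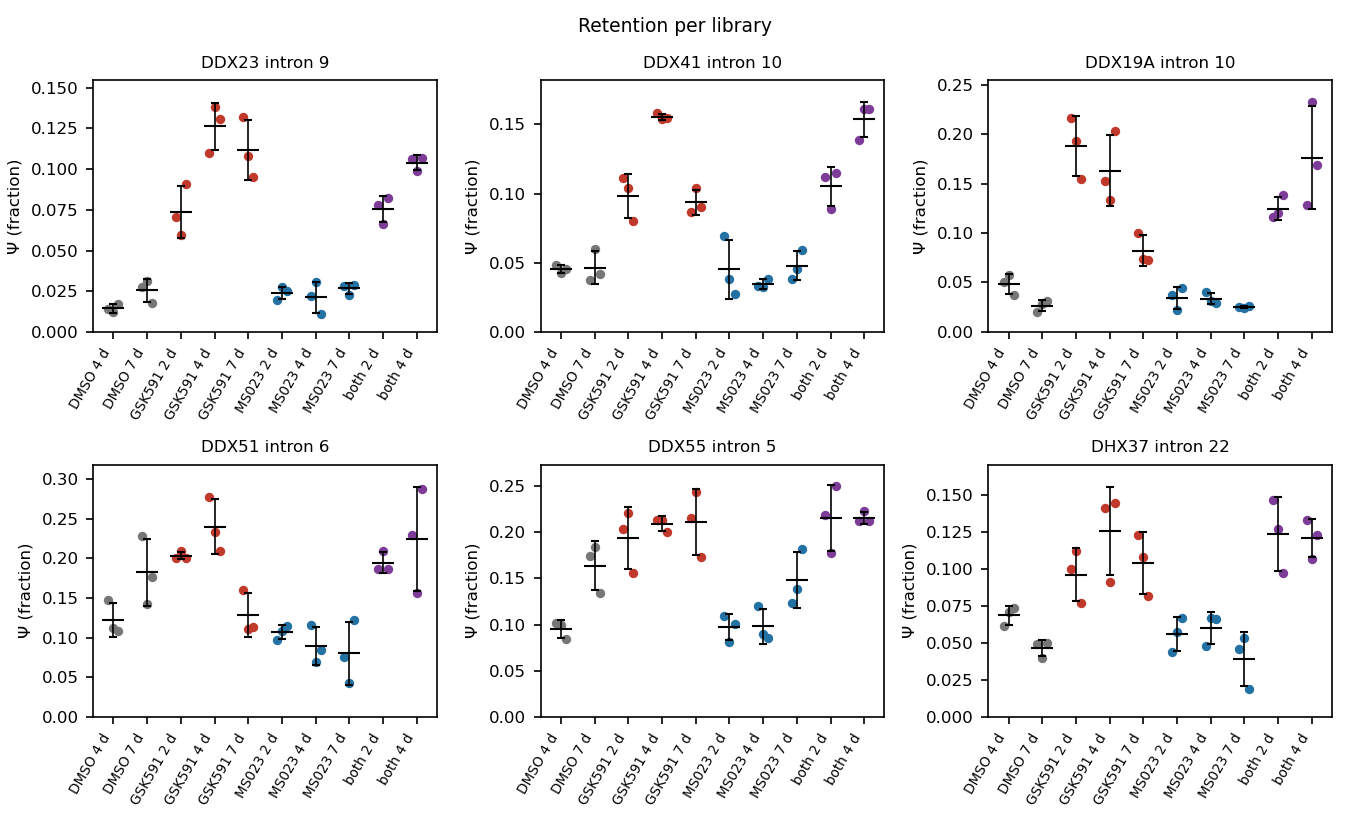
Ψ in every library of the 10 groups for 6 helicase introns, with points for the 3 libraries of a group and a black tick and bars for mean ± SD. DDX23 intron 9, DDX41 intron 10 and DDX19A intron 10 stand above DMSO in all groups with GSK591, whereas DDX51 intron 6 does so at 2 and 4 days and not at 7 days.

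DDX19A, which removes export proteins from mRNA at the nuclear pore, had a single tested intron and it rose in all 5 groups that received GSK591. Intron 10 (chr16:70404289-70405274, 986 nt) was at 0.0504, 0.0578 and 0.0372 with DMSO at 4 days and at 0.216, 0.193 and 0.155 after 2 days of GSK591 (ΔΨ = 0.14, SE 0.0186, adjusted p = 4.01e-06). At 4 days the treated libraries were at 0.153, 0.133 and 0.203. At 7 days they were at 0.1, 0.0737 and 0.0728 against 0.02, 0.0287 and 0.0309 with DMSO, so that both groups were lower than at 4 days. MS023 differed from DMSO by −0.0141, −0.0148 and −0.00123, none called. DDX19A has a close copy beside it, DDX19B, and reads that fit both could not be assigned with certainty. An alternative 5′ splice site inside intron 5 of DDX19A (126 nt), chosen after its values were seen, was used more on each day of GSK591, with ΔΨ of 0.0686, 0.0685 and 0.0405.

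DDX11, a DNA helicase that acts in sister chromatid cohesion, had the largest increase of Ψ among the called helicase RI. Its near-identical relative DDX12P, a pseudogene, shares reads with it, and the 86 events of the pair are uncertain for that reason. Intron 8 (chr12:31242425-31242819, 395 nt) was at 0.351, 0.338 and 0.387 with DMSO at 4 days, at 0.622, 0.822 and 0.687 after 2 days of GSK591 and at 0.719, 0.775 and 0.724 after 4 days. ΔΨ was 0.352 and 0.381 (SE 0.0232 at 4 days, adjusted p = 1.37e-08), and at 7 days it was 0.287. Intron 7 (chr12:31242086-31242336, 251 nt) rose by less, with ΔΨ of 0.0676, 0.0794 and 0.0878. Beside the intron 8 acceptor, a 3′ splice site 46 nt further upstream (chr12:31242774-31242819) had Ψ of 0.0808, 0.137 and 0.11 with DMSO at 4 days and of 0.348, 0.396 and 0.296 with GSK591 (ΔΨ = 0.238, adjusted p = 2.21e-05). The 5 nt at the start of exon 9 (chr12:31242820-31242824) went the other way, from 0.826, 0.92 and 0.762 to 0.592, 0.496 and 0.681 (ΔΨ = −0.246, adjusted p = 6.67e-05). These events share reads with each other. Limma on log2 odds called neither A3SS event at 4 days of GSK591 (adjusted p of 0.0878 for the 46 nt and 0.216 for the 5 nt). The 400-nt RI (chr12:31242425-31242824) that ends at the later acceptor was called with co-treatment only, where its libraries at 2 days, 0.837, 0.86 and 0.906, overlapped those of DMSO at 0.715, 0.852 and 0.662 (ΔΨ = 0.124, adjusted p = 0.0233). That call was lost without DMSO library 1 or 3 and without co-treated library 2 or 3, with ΔΨ from 0.084 to 0.128.

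Intron 26 of DDX11 (chr12:31256666-31256740, 75 nt) fell while intron 8 rose. It was at 0.244, 0.279 and 0.225 with DMSO at 4 days, at 0.138, 0.116 and 0.155 with GSK591 at 4 days and at 0.0862, 0.109 and 0.163 with co-treatment, where ΔΨ was −0.13 (adjusted p = 8.52e-05). MS023 lowered it to 0.183, 0.149 and 0.172 at 2 days and 0.153, 0.181 and 0.174 at 4 days (adjusted p of 0.0201 and 0.0231), below every DMSO library. Limma on log2 odds gave adjusted p of 0.365 and 0.264 for these MS023 differences.

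DDX5 and DDX17 are paralogues (also known as p68 and p72) that act as coregulators of transcription and of splicing. With DHX9 they formed a list with 4 tested RI, of which GSK591 raised 2 at 2 days, 3 at 4 days and 1 at 7 days and lowered 2 at 7 days. MS023 lowered 1 on each day, DDX17 intron 11, and raised 1 at 4 days, DDX5 intron 11. Over all RI, GSK591 raised 24.0%, 33.9% and 21.8% at 2, 4 and 7 days and lowered 234 of 3836 at 7 days. MS023 lowered 4.21%, 5.60% and 9.49% of all RI and raised 62 of 3945 at 4 days. With 4 introns in the list, none of these shares was tested against all genes. The 5′ splice sites of intron 11 are shown because these gene copies differ little there; capitals mark the GT of the donor, with 3 exon bases before it and 4 intron bases after.
DDX5 intron 11 donor: tagGTtagt
DDX17 intron 11 donor: tagGTttgt
DDX17 intron 11 (chr22:38884121-38888060, minus strand, 3940 nt) was read by at least 1806 reads in every library. Ψ was 0.199, 0.219 and 0.187 with DMSO at 4 days and 0.223, 0.253 and 0.235 at 7 days. GSK591 gave 0.23, 0.325 and 0.286 at 2 days and 0.321, 0.303 and 0.309 at 4 days, all above DMSO, with ΔΨ of 0.0788 and 0.11 (adjusted p of 4.03e-04 and 2.21e-07). At 7 days the GSK591 libraries were at 0.161, 0.162 and 0.142, all below DMSO, and ΔΨ was −0.0822 (adjusted p = 1.87e-06, and 0.0613 with limma on log2 odds).

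With MS023, DDX17 intron 11 was low on every day. Its libraries were at 0.122, 0.12 and 0.111 at 2 days, 0.129, 0.126 and 0.118 at 4 days and 0.106, 0.121 and 0.106 at 7 days. ΔΨ was −0.0838, −0.0771 and −0.126, with quasi-binomial adjusted p of 3.19e-11, 2.49e-07 and 4.71e-12 and limma on log2 odds adjusted p of 0.274, 0.199 and 0.0757. Every MS023 library lay below every DMSO library of its comparison. The mean of co-treatment lay between those of the single agents on both days, with libraries at 0.233, 0.201 and 0.211 at 2 days and 0.183, 0.162 and 0.164 at 4 days. Against DMSO its ΔΨ was 0.0136 (adjusted p = 0.384) and −0.0319 (adjusted p = 0.0103). Against GSK591 alone it was lower by −0.0652 and −0.141, with adjusted p of 0.0134 and 1.12e-11.

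Of the DDX5 events, chosen here after their values were seen except for the A5SS, exon 12 differed with MS023 and intron 9 with GSK591. Exon 12, 225 nt and a multiple of 3, encodes part of the helicase core. It is shown with capitals for the exon and 10 bases of each flanking intron in lower case.
DDX5 exon 12 (chr17:62496667-62496891, minus strand): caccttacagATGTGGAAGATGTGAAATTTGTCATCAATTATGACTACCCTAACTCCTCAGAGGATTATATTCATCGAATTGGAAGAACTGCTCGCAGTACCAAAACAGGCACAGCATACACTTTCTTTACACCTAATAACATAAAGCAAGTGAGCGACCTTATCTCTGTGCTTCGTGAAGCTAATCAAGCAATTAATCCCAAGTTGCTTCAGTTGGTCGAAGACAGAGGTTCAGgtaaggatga
It was included at 0.987, 0.985 and 0.987 with DMSO at 4 days and at 0.858, 0.865 and 0.862 after 2 days of MS023 (ΔΨ = −0.124, SE 0.00196, adjusted p = 1.21e-81). At 4 days ΔΨ was −0.12, and at 7 days the MS023 libraries were at 0.908, 0.906 and 0.897 against 0.989, 0.994 and 0.99 with DMSO (ΔΨ = −0.0869). The groups stood far apart for their spread. Limma on log2 odds nevertheless gave adjusted p of 0.194, 0.162 and 0.104 at 2, 4 and 7 days.

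The same skipping appears in the A5SS event of DDX5 (chr17:62496667-62498127, 1461 nt, intron 11 with exon 12), which shares its junction reads. Its Ψ went from 0.956, 0.95 and 0.954 with DMSO to 0.647, 0.661 and 0.645 with MS023 at 2 days (ΔΨ = −0.303, adjusted p = 2.91e-45, and 0.0471 with limma on log2 odds). ΔΨ was −0.292 and −0.222 after 4 and 7 days (0.1 and 0.0443 as adjusted p with limma on log2 odds). GSK591 moved exon 12 by 8.64e-04, 0.00749 and −9.36e-04 over the days, of which the increase at 4 days was called (adjusted p = 0.00276). Co-treatment skipped it less than MS023 did, with libraries at 0.935, 0.951 and 0.952 at 2 days and 0.968, 0.968 and 0.972 at 4 days.

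DDX5 intron 9 (215 nt) was at 0.0457, 0.0371 and 0.0449 with DMSO at 4 days and at 0.0831, 0.0811 and 0.0821 with GSK591 (ΔΨ = 0.0395, adjusted p = 4.37e-08). It was raised at 2 and 7 days as well, by 0.0324 and 0.0316, and by 0.0263 and 0.0368 with co-treatment. MS023 gave −0.00607, −0.00325 and −0.00349, none called. DDX5 intron 11 (chr17:62496892-62498127) moved less, with ΔΨ of 0.0134 at 4 days of GSK591 and −0.0471 at 7 days, both called. MS023 at 4 days moved it by 0.0135 (adjusted p = 0.0378), much as GSK591 did on that day. DHX9, the third member of this list and also known as RNA helicase A, had a 103-nt RI that was included at 0.99 or more in every library and never called. This RI is an intron of another transcript and overlaps exon 25 of the canonical transcript. Its high Ψ therefore does not mean that a canonical intron was retained.

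**Figure D4:**
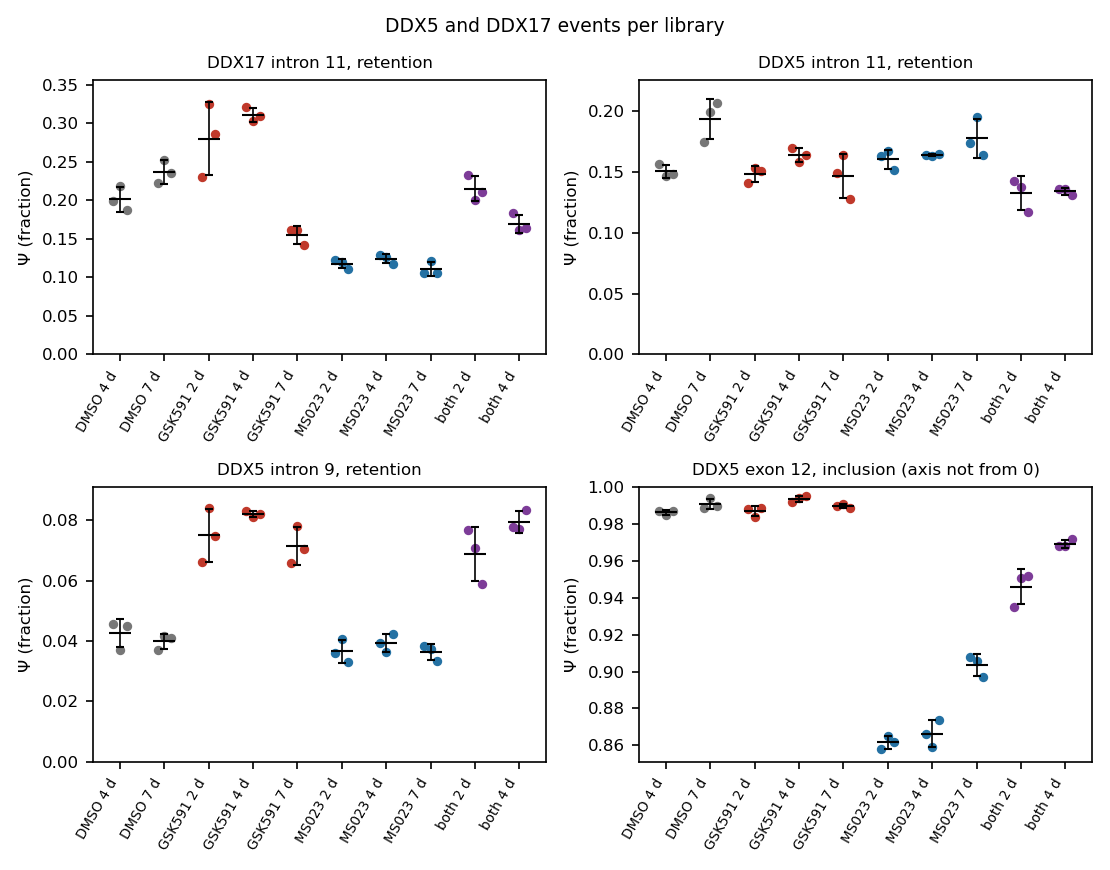
Ψ in every library of the 10 groups for DDX17 intron 11, DDX5 introns 11 and 9, and DDX5 exon 12, with points for the 3 libraries and a black tick and bars for mean ± SD; the axis of the exon 12 panel does not start at 0. DDX17 intron 11 is highest with GSK591 at 4 days and lowest with MS023, and DDX5 exon 12 is lowest with MS023.

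Exon and splice-site events of the helicases were called at shares below those of all genes in each comparison with DMSO. With GSK591, 32 of 676 at 2 days, 47 of 669 at 4 days and 23 of 539 at 7 days were called, against 6.33%, 10.3% and 8.19% in the background. With MS023 the counts were 12 of 599, 12 of 592 and 13 of 509, against 3.08%, 3.63% and 4.49%. Co-treatment called 69 of 718 at 2 days and 55 of 718 at 4 days, against 12.6% and 13.8%. The difference in share was not tested. Skipped exons that were called mostly lost inclusion at 2 and 4 days. With GSK591, 22 of 465 helicase exons were lower at 2 days (5.82% over all genes) and 26 of 460 at 4 days (8.07%). With co-treatment 49 of 484 were lower at 2 days (11.5%) and 29 of 475 at 4 days (10.6%). The split was more even at 7 days of GSK591, with 11 of 377 lower (4.96%) and 6 higher (3.59%). With MS023 0 of 408 helicase exons were higher at 2 days (1.04%), 1 of 414 at 4 days (1.50%) and 4 of 354 at 7 days (2.48%). Those lower with MS023 numbered 11, 10 and 8 (2.63%, 2.77% and 2.47%).

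The exons described first were called on 2 or more days and belong to DHX30, DHX34, DDX42 and DDX46; larger differences in DDX12P and DDX52 follow after them. The small alternative exons of DHX30 and DHX34 are shown as 1 that rose and 1 that fell; 29 nt is not a multiple of 3 and 75 nt is. Capitals mark the exon and lower case 10 bases of each flanking intron.
DHX30 29-nt exon (chr3:47860726-47860754, plus strand, within intron 4 of the canonical transcript): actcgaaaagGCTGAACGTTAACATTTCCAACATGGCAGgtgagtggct
DHX34 75-nt exon (chr19:47880172-47880246, plus strand, within intron 12 of the canonical transcript): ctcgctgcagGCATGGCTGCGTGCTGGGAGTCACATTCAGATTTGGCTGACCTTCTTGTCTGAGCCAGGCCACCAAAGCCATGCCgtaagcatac
DHX30 acts in the assembly of the mitochondrial ribosome. Its 29-nt exon was at 0.278, 0.206 and 0.286 with DMSO at 4 days and at 0.399, 0.399 and 0.392 with GSK591 (ΔΨ = 0.14, adjusted p = 0.00936). At 7 days it was at 0.682, 0.645 and 0.483 against 0.208, 0.259 and 0.274 (ΔΨ = 0.357, adjusted p = 6.35e-10), and with co-treatment at 4 days at 0.651, 0.541 and 0.465 (ΔΨ = 0.295, adjusted p = 8.21e-07). Treated and control libraries did not overlap in these comparisons, although limma on log2 odds called none of them (adjusted p from 0.121 to 0.469).

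A 166-nt exon upstream in DHX30 (chr3:47857453-47857618) was included less, at 0.147, 0.142 and 0.0864 with GSK591 at 4 days against 0.285, 0.28 and 0.292 (ΔΨ = −0.161, adjusted p = 2.13e-07). The coding exon 15 of DHX30 (207 nt), chosen after its values were seen, fell from 1, 1 and 0.996 to 0.923, 0.907 and 0.878 (ΔΨ = −0.0957, adjusted p = 2.43e-11, and 0.0253 with limma on log2 odds). It was lower on every day of GSK591 and with co-treatment, and not called with MS023. DHX34, a factor in nonsense-mediated decay, included its 75-nt exon at 0.352, 0.324 and 0.239 with DMSO at 4 days. GSK591 gave 0.171, 0.124 and 0.178 at 2 days and 0.179, 0.168 and 0.126 at 4 days (ΔΨ = −0.148 on both days, with adjusted p of 3.84e-05 and 2.25e-06, and of 0.437 and 0.358 with limma on log2 odds). At 7 days the groups overlapped (ΔΨ = −0.0834, adjusted p = 0.0356).

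DDX42, a helicase that joins the U2 snRNP through SF3B, has a 71-nt exon in its 5′ UTR (chr17:61852468-61852538) that is absent from the canonical transcript. It was included at 0.213, 0.223 and 0.241 with DMSO at 4 days, and at 0.423, 0.402 and 0.368 with GSK591 (ΔΨ = 0.172, adjusted p = 1.01e-09). At 7 days the values were 0.414, 0.396 and 0.48 against 0.255, 0.231 and 0.22 (ΔΨ = 0.195, SE 0.0275, adjusted p = 8.73e-27). With MS023 ΔΨ was 0.0236, −0.0135 and −0.0117, none called. Limma on log2 odds gave adjusted p of 0.356 and 0.328 for GSK591 at 4 and 7 days. DDX46 has a 117-nt alternative exon within intron 12, of low inclusion. It was at 0.0239, 0.0271 and 0.00792 with DMSO at 4 days and at 0, 0 and 7.16e-04 with GSK591 (ΔΨ = −0.0194, adjusted p = 3.05e-07, and 0.0267 with limma on log2 odds). This exon was also chosen after its values were seen.

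**Figure D5:**
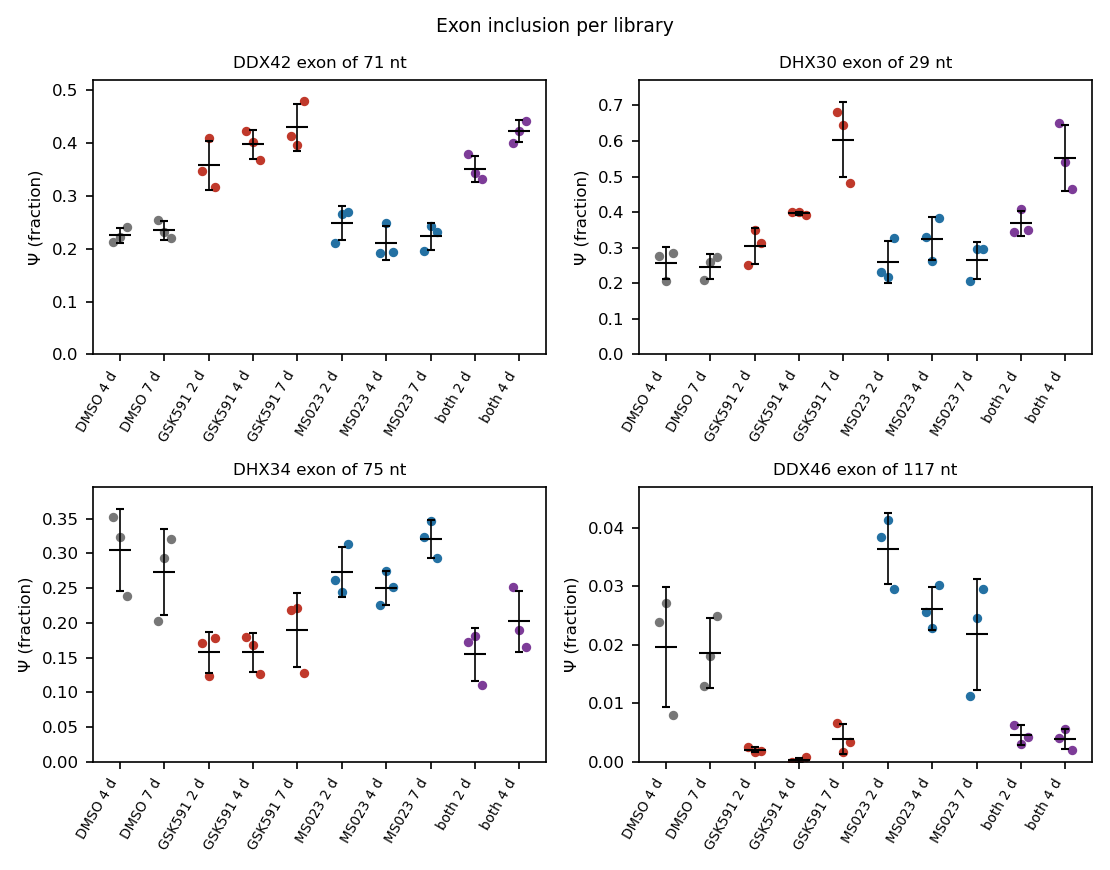
Ψ in every library of the 10 groups for the DDX42 71-nt, DHX30 29-nt, DHX34 75-nt and DDX46 117-nt exons, with points for the 3 libraries and a black tick and bars for mean ± SD. DDX42 and DHX30 are higher with GSK591 at 4 and 7 days, DHX34 is lower at 2 and 4 days, and DDX46 is close to 0 in the GSK591 groups.

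The remaining named exon events were called in 1 or 2 comparisons with DMSO. With co-treatment at 2 days, a 117-nt exon of DDX11 (chr12:31237944-31238060) fell from 0.958, 0.98 and 0.954 to 0.819, 0.808 and 0.783 (adjusted p = 1.75e-04). A 1510-nt segment of DDX52 (chr17:35979813-35981322) that joins exons 11 to 13 fell from 0.964, 1 and 1 to 0.768, 0.689 and 0.861 (adjusted p = 3.85e-04), and its mutually exclusive event from 0.959, 0.953 and 0.991 to 0.839, 0.823 and 0.72 (adjusted p = 2.52e-04). These DDX52 events overlap the 1287-nt RI and are not independent of it. In a mutually exclusive event, here and in DDX59, Ψ counts a single exon of the pair. Which exon that is was not determined, so a rise or fall cannot be assigned to either exon. Exon 5 of DDX59 (252 nt) fell from 0.886, 0.913 and 0.909 to 0.759, 0.692 and 0.83 (adjusted p = 0.00513, lost without co-treated library 1 or 2, ΔΨ from −0.142 to −0.108), and the mutually exclusive event over DDX59 exons 4 and 5 rose from 0.441, 0.425 and 0.399 to 0.612, 0.603 and 0.453 (adjusted p = 0.0452, lost without DMSO library 1 or 3 or co-treated library 1 or 2, ΔΨ from 0.106 to 0.144). In DDX60L, an interferon-induced gene, exon 9 (142 nt) fell from 0.929, 1 and 1 to 0.813, 0.766 and 0.804, with 37 reads in the smallest library (adjusted p = 0.0302). This call was lost without DMSO library 2 or 3 or any co-treated library, with ΔΨ from −0.191 to −0.168.

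MS023 at 7 days gave 2 further exon calls. The 158-nt exon of the pseudogene DDX12P (chr12:9589543-9589700) was at 0.938, 0.952 and 0.818 with DMSO and 0.548, 0.568 and 0.481 with MS023, with 26 reads in the smallest library (ΔΨ = −0.37, adjusted p = 8.40e-04), a call lost without DMSO library 1 or 2 or MS023 library 3 (ΔΨ from −0.352 to −0.344). DMSO at 4 days was lower, at 0.705, 0.716 and 0.566, without overlapping DMSO at 7 days (difference 0.24, quasi-binomial adjusted p = 0.085). MS023 means were 0.497, 0.548 and 0.533 at 2, 4 and 7 days, and the exon was not called at 2 or 4 days. The part of the DMSO difference in the call at 7 days was not tested. An 88-nt exon of DHX57 (chr2:39046015-39046102) went from 0.931, 1 and 1 to 0.886, 0.802 and 0.815 (adjusted p = 0.0307), a call lost without DMSO library 2 or 3 or any MS023 library (ΔΨ from −0.169 to −0.127). Exon 22 of DHX57 (135 nt), chosen after its values were seen, was lower on each day of MS023, with ΔΨ of −0.0511, −0.053 and −0.0345 and adjusted p of 0.00651, 0.00593 and 0.0211. Exon 13 of DDX50 (135 nt), a nucleolar helicase also chosen after its values were seen, was lower on each day of GSK591, with ΔΨ of −0.0716, −0.0801 and −0.0957.

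Events called in the same direction on all 3 days numbered 17 in 10 genes for GSK591. Of these, 8 were RI, all higher, of 40 tested on every day (20%, beside 17.2% over all RI), in DDX11, DDX19A, DDX23, DDX41 and DDX5. The other 9 of 361 (2.49%, beside 3.47% over all exon and splice-site events) were 5 exons with less inclusion, 1 exon with more (DDX42), 2 A3SS in DDX11 and 1 A5SS in DDX19A. The A3SS were the 46-nt one and a 28-nt one within intron 19 (chr12:31253933-31253960), chosen after its values were seen. ΔΨ of the 28-nt A3SS was 0.0711, 0.0883 and 0.0522 at 2, 4 and 7 days, and its libraries overlapped those of DMSO at 4 days. MS023 had 4 such events in 3 genes, which were the DDX5 exon 12 and A5SS events, DDX17 intron 11 and DHX57 exon 22. These are 1 of 40 RI (2.78% over all RI) and 3 of 325 exon and splice-site events (1.62% over all).

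A direct comparison of GSK591 with MS023 at matched days gave 19 of 42 helicase RI called at 2 days, 18 of 40 at 4 days and 17 of 40 at 7 days, where the background was 34.2%, 44.8% and 39.4%. Of these, 17, 18 and 15 were higher with GSK591, against 30.7%, 40.1% and 32.5% over all genes. At 4 days DDX23 intron 7 differed by 0.134 (adjusted p = 1.19e-16), DDX19A intron 10 by 0.129 (adjusted p = 5.61e-10) and DDX17 intron 11 by 0.187 (adjusted p = 1.81e-18). The largest called difference at 4 days was 0.424, in DDX11 intron 8 (adjusted p = 2.48e-12), and that of DDX17 came next. DDX5 exon 12 was more included with GSK591 than with MS023, by 0.125, 0.127 and 0.086 at 2, 4 and 7 days, and limma on log2 odds called each difference (adjusted p of 0.0339, 0.0142 and 0.0156).

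Adding MS023 to GSK591 changed few helicase introns relative to GSK591 alone. At 2 days 1 of 42 was called (3.45% over all genes), which was DDX17 intron 11. At 4 days 5 of 42 were called, all lower (8.92% over all genes). Besides DDX17 intron 11 these included DDX5 intron 11 (−0.0299), DDX41 intron 13 (−0.0521) and DDX51 intron 8 (−0.0599). DDX23 intron 9, DDX41 intron 10 and DDX19A intron 10 were not called in either comparison.

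DMSO alone differed between days in 8 of 41 helicase RI, against 8.70% over all genes. Of the exon and splice-site events of the helicases 35 of 566 differed, against 6.02% over all genes. Most of these were MXE, with 30 of 99 called, against 22.5% of all MXE. DDX17 intron 11, DDX5 intron 11 and DDX55 intron 5 were higher at 7 than at 4 days, by 0.0355, 0.0433 and 0.0691. DDX19A intron 10, DDX23 intron 7, DDX27 intron 20, DDX46 intron 17 and DDX56 intron 1 were lower, by −0.0126 to −0.0231. Whether the effect of an inhibitor itself differed between 7 and 4 days was tested as an interaction, with each day against its own DMSO group. For GSK591 5 of 40 helicase RI were called (6.23% over all genes), all with a lower effect at 7 days. They were DDX17 intron 11, DDX5 intron 11, DDX51 introns 6 and 8 and DDX55 intron 5, of which DDX17 and DDX5 intron 11 and DDX55 intron 5 are also among the introns that differed between the DMSO groups. For MS023 0 of 40 were called (0.295% over all genes).

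RNA helicases outside the DEAD and DEAH families and the excluded DDX39 genes, 488 events in 21 genes, served as the nearest comparison. Their tested RI lay in 7 of these genes. With GSK591 at 4 days 8 of their 21 tested RI were higher and 0 lower, near the 19 of 42 of the DEAD and DEAH box genes and the 33.9% of all genes. With MS023 at 7 days 4 of 21 were lower, against 3 of 40 and 9.49% over all genes. Co-treatment at 2 days lowered 1 of 22, against 7 of 43 of the DEAD and DEAH box genes and 196 of 3897 over all genes. These shares were not tested against each other.

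The helicase introns higher with GSK591 at 4 days were 76 to 3940 nt long with a median of 215 nt, and 13 of 19 were 300 nt or shorter (68.4%). The 23 tested helicase introns that were not higher had a median of 400 nt. Over all genes the 1333 higher introns had a median of 227 nt and 62.1% were 300 nt or shorter, so the helicase introns were of usual length for the response. The median GC content of the higher helicase introns was 51.9%, against 58.2% over all higher introns. Among introns that were not higher it was 45.8% for the helicases and 56.3% over all genes. The ends of 46 helicase RI were read from the genome, and 45 began with GT and ended with AG, the exception being an RI of DDX46 that begins with TT. Of the 46, 30 were introns of the canonical transcript, 8 of another transcript, and 8 were not annotated as introns. The 30 canonical introns all lay between coding exons, and 25 carry a stop codon in the reading frame that enters them. Of the 17 canonical introns that were higher with GSK591 at 4 days, 14 carry one. The others are DDX23 intron 7, DDX41 intron 10 and DHX38 intron 6. Their lengths of 130, 200 and 158 nt are not multiples of 3, so retention of each shifts the reading frame after it.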

How the data were processed

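RNA of A549 cells was sequenced from 30 libraries in 10 groups of 3. Per the labels and the methods, the authors trimmed reads with Trim Galore 0.6.5 and aligned them to hg19 with STAR 2.4.2a. They then called splicing events with rMATS, for which more than one version is named. The deposited tables give, per event and library, whole-number counts of inclusion and skipping reads on junctions and bodies, joined by commas in one cell, with effective lengths. The tables do not number their libraries, so the 3 of each group are named 1 to 3 by position. The authors' own Ψ, ΔΨ, p-value and false discovery rate columns were not used as results. Ψ was computed from the counts and differed by at most 0.0005 from the deposited values.

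Each of 14 comparisons was fitted over all events of a type with at least 10 reads in every library, by a quasi-binomial model in R 4.3.3 with dispersion moderated by limma 3.58.1, a dispersion floor of 1 and Benjamini-Hochberg adjustment at 0.05. A test of this kind treats reads as draws with extra spread between libraries, so deeply read events pass with small differences. Alternatives were a limma test on log2 odds (0.5 added to counts), minimums of 1 and 20 reads, adjustment over all 5 event types, 1 event per segment, no length correction and each library left out. The test of 7 against 4 days was added after the data were opened. Tests were checked on simulated data. Most of the differences put into these data were missed, both for RI and, to a larger extent, for exons. The same held for RI in the test of 7 against 4 days with GSK591. False calls in comparisons with DMSO exceeded the nominal share, slightly for RI and most for exons with GSK591 at 2 days. Introns were annotated with GENCODE v44 lifted to GRCh37, and sequence was read from GRCh37 with pysam 0.24.0. The members, the role lists and the tests were chosen with earlier results of these data known. Named events were the 15 RI, 10 SE and 5 other events with the largest called |ΔΨ| and at least 20 reads in every library, with 1 exon event per alternative segment, and the most-read RI never called. Others are said to be chosen after their values were seen. DDX3Y is not reported here with values, and 1 named RI is not reported here.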

Additional observations from a re-analysis of the deposited data

Results flagged for a closer look

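In 5 helicase introns the effect of GSK591 on Ψ differed between 7 and 4 days by the interaction test, in each case lower at 7 days. In DDX17 intron 11 the effect went from 0.11 at 4 days to −0.0822 at 7 days, a difference of −0.192 (adjusted p = 5.38e-08). In DDX5 intron 11 it went from 0.0134 to −0.0471, a difference of −0.0605 (adjusted p = 3.58e-04). In DDX51 intron 8 the difference was −0.149 (adjusted p = 0.00223) and in DDX51 intron 6 it was −0.172 (adjusted p = 0.00572), both from increases at 4 days to values at 7 days that were not called. In DDX55 intron 5 the effect went from 0.114 to 0.0468, a difference of −0.0674 (adjusted p = 0.0229). In DDX17, DDX5 and DDX55 the DMSO groups also differed between these days, by 0.0355, 0.0433 and 0.0691, and in DDX51 introns 6 and 8 they differed by 0.0598 and 0.033 without being called (adjusted p of 0.133 and 0.161). The part of this in the interaction was not tested. The adjusted p-values are from the quasi-binomial test with limma-moderated dispersion over all RI.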

How the results depend on the processing

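All 22 counts of called helicase events stayed within 1.5 times of the reported count with a minimum of 1 or 20 reads, adjustment over all 5 event types or 1 event per segment. Fewer were called by limma on log2 odds. For RI it called 6 with GSK591 at 2 days, 9 and 11 with co-treatment at 2 and 4 days, 12 and 10 for GSK591 against MS023 at 2 and 7 days, and 0 for MS023 on each day, for co-treatment against GSK591 at 2 and 4 days and for DMSO at 7 against 4 days. Those zeros had 4, 6, 6, 5, 7 and 9 RI at an unadjusted p under 0.05, against 5, 7, 10, 9, 9 and 12 by the quasi-binomial test. It kept within 1.5 times the RI counts of GSK591 at 4 and 7 days (15 and 9) and of GSK591 against MS023 at 4 days (17). For exon and splice-site events it called 0, 7 and 2 with GSK591 at 2, 4 and 7 days, 1, 0 and 1 with MS023 and 19 and 19 with co-treatment, where the zeros had 61 and 34 at an unadjusted p under 0.05. The cause was not tested.

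With each library left out in turn, exon and splice-site calls ranged from 14 to 21 with GSK591 at 2 days, 23 to 33 at 4 days and 6 to 11 at 7 days. They ranged from 3 to 11, 2 to 8 and 3 to 6 with MS023, and from 36 to 52 and 29 to 46 with co-treatment. RI calls ranged from 1 to 2, 1 to 2 and 2 to 5 with MS023, from 0 to 5 and 2 to 5 for co-treatment against GSK591, and from 2 to 5 for DMSO at 7 against 4 days. RI calls of GSK591 ranged from 11 to 16, 17 to 20 and 11 to 13. These refits have 1 library fewer.

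Of the 31 named events, 0 reversed under any alternative. By limma on log2 odds 18 calls were lost, while leaving out a library lost 8 and adjustment over all types lost 1, the 400-nt RI of DDX11. No paired analysis was possible because the tables do not number their libraries and the labels do not tie libraries of different groups to each other.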
